A study of Mus musculus with 4 samples.

Results

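The genes described here encode the receptor complex through which macrophages detect lipopolysaccharide (LPS), a component of the outer membrane of Gram-negative bacteria, and the adaptors and kinases that carry its signal inward. The list held 10 genes: Tlr4, Ly96, Cd14, Tlr2, Myd88, Ticam1, Ticam2, Irak1, Irak2 and Irak3. Every probe set whose annotation named one of these genes and no other was taken. This gave 9 of the 10 genes, among 18193 genes that the array names by a probe set of their own, and 16 of its 45037 probe sets. Ticam2, which encodes the adaptor TRAM, is not analysed here. Of the 16 probe sets, 15 were bright enough to test, and the other was a dim probe set of Tlr4.

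Macrophages were grown from mouse bone marrow for 7 days in medium that held 20% of L-cell supernatant, which supplies M-CSF. All 4 samples had overnight priming with 100 U/ml of interferon-gamma and were then given LPS at 10 ng/ml, so the treatment differed only in whether immune complexes, antibody bound to antigen, were added with the LPS. The LPS group, which the series calls classically activated, and the LPS plus immune complexes group, which it calls type II activated, each had 2 arrays, labelled replicates 1 and 2, of RNA from cells stimulated for 2 h. The mouse strain and the antigen are not given in the sources used here, and no array of cells without LPS was used, so the values compare the 2 stimulations and not a resting state with an activated one. Nothing in the labels ties the replicates to separate cultures or animals, and the p-values thus reflect only how these samples spread, which may be technical.

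As background, CD14 takes up LPS and hands it to a complex of TLR4 with its small partner MD-2, the product of Ly96, at the cell surface. The adaptor MyD88 then gathers the IRAK kinases and leads to rapid cytokine transcription, while TRIF, the product of Ticam1, acts with TRAM from endosomes and leads to interferon beta. TLR2, which senses bacterial lipoproteins as a partner of TLR1 or TLR6, also signals through MyD88, and IRAK-M, the product of Irak3, restrains the IRAK kinases.

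The promoters of Myd88 and Irak2 are shown here because these were the signalling genes whose signals were lower with immune complexes in every pair of arrays. Sequences are from RefSeq on GRCm38.p6 and run 5′ to 3′ along the gene's strand, from 250 bases before the transcript start to 50 after it. Capitals mark matches to any of 6 motifs, searched on both strands. They were a general NF-kB motif (GGG and CC with any 5 bases between them), its strict case (GGGAC directly followed by TTTCC), ISRE (GAAA and GAAA with any 2 bases between them), TGANTCA for AP-1, TGACGTCA for CRE and TTCNNNGAA for GAS, where N is any base.
Myd88, chr9:119339969-119340268, minus strand: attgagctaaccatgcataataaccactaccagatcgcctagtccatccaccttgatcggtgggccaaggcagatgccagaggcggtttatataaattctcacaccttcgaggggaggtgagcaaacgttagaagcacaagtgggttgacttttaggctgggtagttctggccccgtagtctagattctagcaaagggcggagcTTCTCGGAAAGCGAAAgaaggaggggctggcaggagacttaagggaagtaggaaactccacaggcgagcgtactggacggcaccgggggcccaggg
Irak2, chr6:113638217-113638516, plus strand: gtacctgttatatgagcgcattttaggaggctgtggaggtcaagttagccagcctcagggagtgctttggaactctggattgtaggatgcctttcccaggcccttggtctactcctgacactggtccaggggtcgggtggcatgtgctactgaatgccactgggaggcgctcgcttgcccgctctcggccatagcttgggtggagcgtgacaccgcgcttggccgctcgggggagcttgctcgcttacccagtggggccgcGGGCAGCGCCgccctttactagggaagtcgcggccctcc

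The Myd88 window held a GAS match beginning 46 bases before the start and an ISRE match beginning 40 bases before it, and these overlap. GAS and ISRE are the letters bound by factors of the interferon pathways. Of the 32851 promoters in the same table, all 300 bases long, 8.3% held the GAS letters and 3.44% the ISRE letters. The Irak2 window held a match to the general NF-kB letters downstream of the start, which 50.8% of all promoters also held. The promoters of Tlr2, Ticam1 and Irak1 and 1 of the 2 windows of Irak3 held the general NF-kB letters too. None of the 8 windows of these 6 genes held the strict NF-kB, AP-1 or CRE letters, which 0.155%, 7.81% and 1.79% of all promoters held. A match describes these letters only. Promoters of Tlr4, Ly96, Cd14 and Ticam2 were not in the table.

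Before the members are described, the arrays need a word. The first LPS plus immune complexes array stood apart: its median signal was 155.4, against 68.2 to 88.3 on the other 3 arrays, and the first principal component, with 62.2% of the variance, set it apart. Its dim probe sets read high and its bright ones low. Among tested probe sets whose mean signal exceeded 10000 the median log2 difference of this array from the LPS arrays was -0.31, against -0.09 for the second LPS plus immune complexes array, and among those under 500 it was 0.55 against -0.10. Of the 15 tested member probe sets 13 had a mean signal of at least 500, where 61.5% of tested probe sets had a log2 fold change below 0, against 44.1% of all, so each member is read here beside probe sets of like signal and with and without that array. The 7 macrophage markers read, among them Adgre1, Csf1r and Cd68, were all bright enough to test, with readings from 729.7 to 44660. Of 4 T cell genes read, Cd3e, Cd3g and Cd3d, which define these cells, had no reading above 94.2, and Cd247 read 578.2 and 257.6 with LPS and 227 and 144.9 with the complexes.

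No member changed past the threshold when immune complexes were added to LPS. Of the 15 tested member probe sets 0 had an adjusted p under 0.05 in limma, against 0.0518% of all 27022 tested probe sets, and limma's adjusted p was 1 for every one of the 15. At an unadjusted p under 0.05 limma took 1, Myd88 on the lower side, against 2.81% of all tested probe sets. The signals of 4 member probe sets were nevertheless lower in all 4 pairs of an LPS and an LPS plus immune complexes array: those of Myd88, Irak2 and Cd14 and the brightest probe set of Tlr4. On the signals as deposited none was higher in all 4 pairs, and none differed at least 2-fold in all 4, as 1.6% of tested probe sets did. Over all tested probe sets 12% were lower and 13.6% higher without overlap, and among those with a mean signal of at least 500 the shares were 18.4% and 11.1%. Without the first LPS plus immune complexes array, over 2 pairs, 7 of the 15 were lower and 2 higher without overlap, against 34.4% and 24.7% of all tested probe sets. The log2 fold changes of the members, computed on log2(signal + 32) as LPS plus immune complexes minus LPS, ran from -0.75 to 0.49 with a median of -0.06, against a median of 0.07 over all tested probe sets and of -0.09 over those with a mean signal of at least 500.

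**Figure D1:**
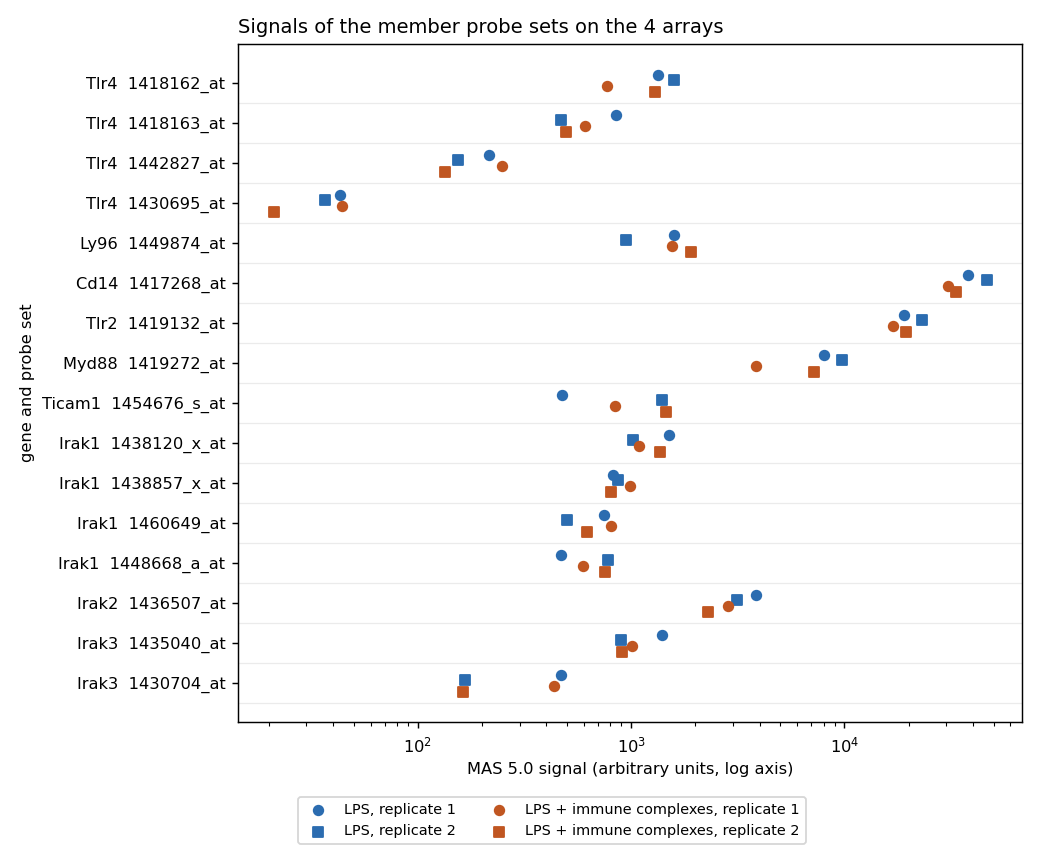
MAS 5.0 signals (log axis) of all 16 member probe sets, 1 row each, on the 2 LPS arrays (blue) and the 2 LPS plus immune complexes arrays (orange), with circles for replicate 1 and squares for replicate 2. Both orange points lie to the left of both blue points for Cd14, Myd88, Irak2 and the brightest Tlr4 probe set, and the colours overlap or interleave in the other rows.

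The receptor itself was read by 4 Tlr4 probe sets, which did not behave alike. The brightest, 1418162_at, gave signals of 1340.7 and 1582.4 in the LPS group, against 774.6 and 1298.7 with immune complexes added. Both LPS readings were the higher ones, but the 2 readings with immune complexes lay further apart than the groups did. Its log2 fold change was -0.52 ± 0.39 (SE, n = 2 arrays per group) with a 95% interval from -1.38 to 0.33, and 7.06% of tested probe sets with a mean signal of 500 to 2000 had a lower value. Without the first LPS plus immune complexes array the value was -0.16, and without the second it was -0.88.

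The other Tlr4 probe sets showed no separation of the groups. Probe set 1418163_at gave 850.7 and 466.9 under LPS alone and 608 and 495 once immune complexes were added, so that both LPS plus immune complexes readings fell between the LPS readings. Its log2 fold change was -0.19 ± 0.43. Probe set 1442827_at read 214.4 and 154.8 against 247.9 and 134.2, with a log2 fold change of 0.01 ± 0.52, and here the LPS readings lay between the others. The untested probe set, 1430695_at, had readings between 21.1 and 44.1. The mean signal was lower with immune complexes for 3 of the 4 Tlr4 probe sets, and the groups were free of overlap for 1.

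Ly96 encodes MD-2, the TLR4 partner that holds the lipid part of LPS. It gave signals of 1580 and 949.2 in the LPS group, against 1561.1 and 1916.3 with immune complexes added. The groups overlapped, since the first LPS array read above the first array with immune complexes, and the second LPS array alone was low. The log2 fold change was 0.49 ± 0.39, with a 95% interval from -0.36 to 1.33, the highest value among the members. It was 0.13 without the second LPS array and 0.84 without the first. Without the first LPS plus immune complexes array it was 0.63. Among tested probe sets with a mean signal of 500 to 2000, 89.6% had a lower value.

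Cd14, the co-receptor that delivers LPS to TLR4 and MD-2, gave 38026.6 and 46505.3 under LPS alone and 30497.4 and 33355.4 once immune complexes were added. The groups did not overlap, and the difference between them was larger than that between replicates of either group. Mean signals were 42266 ± 5995 and 31926 ± 2021 (SD, n = 2), with a log2 fold change of -0.40 ± 0.21 and a 95% interval from -0.87 to 0.07. Since all 4 pairs were lower, leaving out an array could change the size of this difference but not its direction. The values then ran from -0.54 to -0.25, with -0.33 without the first LPS plus immune complexes array.

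Cd14 shared part of this difference with other bright probe sets. Among the 797 tested probe sets whose mean signal exceeded 10000 the median log2 fold change was -0.20, 84.2% lay below 0 and 35.5% were lower in all 4 pairs. In that class 8.41% had a lower log2 fold change than Cd14. Quantile normalization, which gives all arrays the same distribution, took the Cd14 value to -0.14.

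Tlr2, the lipoprotein receptor, gave 18982.6 and 23124.4 under LPS alone and 16824.8 and 19411.4 once immune complexes were added. The second array with immune complexes read above the first LPS array, so the groups overlapped. The log2 fold change of -0.21 ± 0.24 lay close to the median of -0.20 of its signal class, in which 45.7% of probe sets had a lower value. With quantile normalization it was -0.03.

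Myd88, the adaptor shared by TLR4, TLR2 and the interleukin-1 receptor, had the lowest log2 fold change of the members. It gave 8031.5 and 9786.4 under LPS alone and 3861.4 and 7176 once immune complexes were added. All 4 pairs were lower with immune complexes, 2 of them at least 2-fold, both with the first LPS plus immune complexes array. Mean signals were 8909 ± 1241 and 5519 ± 2344 (SD, n = 2). The log2 fold change was -0.75 ± 0.34, with a 95% interval from -1.48 to -0.01 and an unadjusted limma p of 0.0467 that became an adjusted p of 1 over all tested probe sets.

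The size of the Myd88 difference rested on the array that stood apart. Without it the log2 fold change was -0.30, and without the second LPS plus immune complexes array it was -1.19. The replicates with immune complexes differed by 0.89 on the log2 scale, more than the groups did. Among tested probe sets with a mean signal of 2000 to 10000, whose median was -0.13, 3.09% had a lower log2 fold change than Myd88.

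Ticam1 encodes TRIF, the adaptor of the interferon beta arm, and its single probe set, 1454676_s_at, is of a type that can bind transcripts of several genes. It gave 475.6 and 1390.4 under LPS alone and 842 and 1455.7 once immune complexes were added. In both groups the replicate 1 array was the low one, and the LPS arrays differed from each other by 1.49 on the log2 scale. The log2 fold change of 0.42 ± 0.51 therefore lay within the spread of the replicates. It turned to -0.32 without the first LPS array and was 1.17 without the second. Without the first LPS plus immune complexes array it was 0.81. In its signal class 87.7% of probe sets had a lower value. Myd88 and Ticam1 signals thus had log2 fold changes of opposite sign, but neither passed and the difference between them was not tested.

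**Figure D2:**
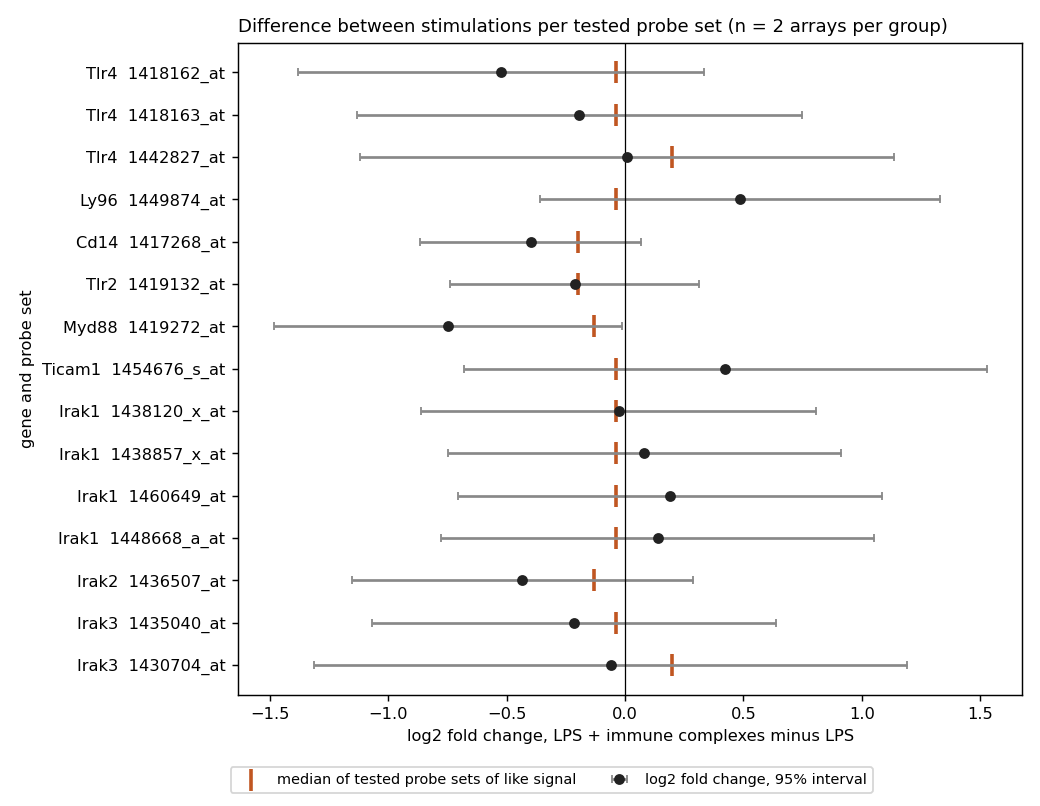
Log2 fold change (points) with 95% intervals (lines) of the 15 tested member probe sets, LPS plus immune complexes minus LPS, n = 2 arrays per group; the orange bar in each row is the median of all tested probe sets of like mean signal. The interval of Myd88, from -1.48 to -0.01, lies below 0, and the other 14 intervals include 0. Under several alternatives given in the last section the unadjusted limma p of Myd88 was not under 0.05.

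Irak1 encodes a kinase that MyD88 recruits and that is then modified and degraded. It was read by 4 probe sets with log2 fold changes between -0.03 and 0.19. Probe set 1438120_x_at gave 1509.2 and 1025.1 under LPS alone and 1085.8 and 1372.7 once immune complexes were added. Probe set 1438857_x_at read 820.6 and 866.7 against 989.9 and 808.3. In the first the readings with immune complexes lay between the LPS readings, and in the second the LPS readings lay between the others.

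The remaining Irak1 probe sets gave the same picture of overlap. Probe set 1460649_at gave 748.7 and 501.1 under LPS alone and 800.9 and 618.6 once immune complexes were added, and 1448668_a_at read 470.1 and 779.5 against 596.8 and 753. For the first the replicate 1 array was the higher in both groups, and for the second the lower. The 95% intervals of the 4 probe sets reached from -0.86 at the lowest to 1.09 at the highest.

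Irak2 encodes the kinase that sustains signalling after IRAK1 is used up. Its probe set gave 3832 and 3129.2 under LPS alone and 2857.7 and 2283.5 once immune complexes were added. The groups did not overlap, and within each group the replicate 1 array was the higher. The log2 fold change was -0.43 ± 0.33, with a 95% interval from -1.15 to 0.29. Arrays of the same replicate number differed by -0.42 and -0.45.

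For Irak2, lower in all 4 pairs, leaving out an array could likewise change only the size of the difference. The log2 fold change was -0.59 without the array that stood apart. It lay between -0.59 and -0.27 when any of the 4 was left out. The difference between groups was larger than that between replicates of either group, which among the 15 tested members held for Irak2 and Cd14 and over all tested probe sets for 15.2%. Quantile normalization gave -0.35. In its signal class 11.5% of probe sets had a lower log2 fold change.

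Irak3 encodes IRAK-M, the inhibitory member of the family, which is found mainly in macrophages. The brighter probe set, 1435040_at, gave 1388.6 and 893.9 under LPS alone and 1011.3 and 902.9 once immune complexes were added. Both readings with immune complexes lay between the LPS readings, and the log2 fold change was -0.22 ± 0.39. It was 0.09 without the first LPS array.

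The dimmer Irak3 probe set, 1430704_at, separated the replicate numbers and not the stimulations. It read 471.3 and 436.8 on the replicate 1 arrays of LPS and of LPS plus immune complexes and 166.1 and 163.5 on the replicate 2 arrays. The replicates differed by 1.35 and 1.26 on the log2 scale, while the log2 fold change between stimulations was -0.06 ± 0.57. Its 95% interval, from -1.31 to 1.19, was the widest of the members. The brighter Irak3 probe set had the same order of replicates in both groups, with smaller differences of 0.62 and 0.16.

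**Figure D3:**
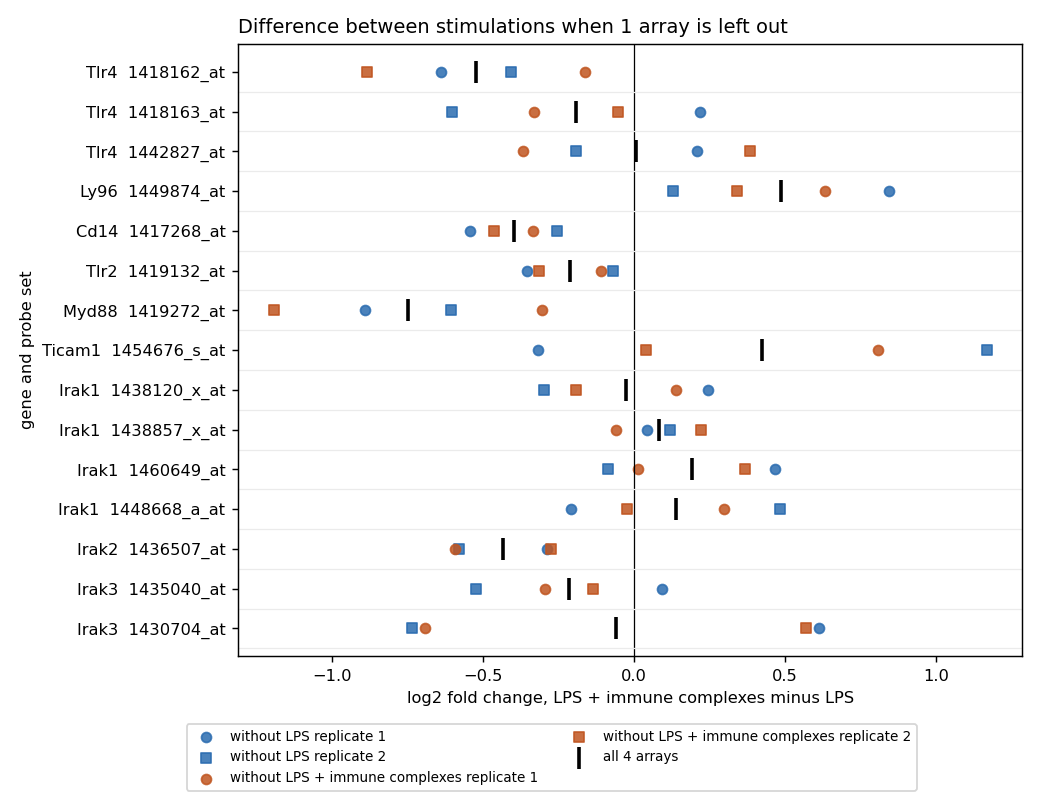
Log2 fold change of each tested member probe set, LPS plus immune complexes minus LPS, with all 4 arrays (black bar) and after leaving out each array in turn (blue for an LPS array, orange for an LPS plus immune complexes array). All 5 marks lie below 0 for Cd14, Tlr2, Myd88, Irak2 and the brightest Tlr4 probe set and above 0 for Ly96. The marks of the other rows fall on both sides. Cd14, Myd88, Irak2 and that Tlr4 probe set were lower in all 4 pairs of arrays, so the side of their marks was fixed in advance.

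Other genes of the pathway were read on 7 lists of 86 genes, each on its brightest tested probe set. Of the 77 genes tested 0 passed limma's adjusted threshold in either direction. Log2 fold changes were below 0 for 51 of the 77 and above 0 for 26, with a median of -0.11, and 19 were lower and 8 higher in all 4 pairs. Over all tested probe sets with a mean signal of at least 500, 61.5% lay below 0, and 18.4% were lower and 11.1% higher in all 4 pairs. Over all 27022 tested probe sets these shares were 44.1%, 12% and 13.6%. Some of the 77 genes had a mean signal under 500, so neither set is quite like them, and the differences from these shares were not tested. Without the first LPS plus immune complexes array the median was 0.01. Irak4, the kinase upstream of IRAK1, and Traf3, an adaptor of the TRIF arm, are not analysed here.

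The surface partners had a median of -0.31 over 10 tested genes, 9 of them below 0 and 5 lower in all 4 pairs. Ly86, Tyrobp, Itgb2 and Cd36 among them belong to the class with a mean signal over 10000, of which 84.2% lay below 0 and 35.5% were lower in all 4 pairs. Their median was -0.09 without the first LPS plus immune complexes array. Tlr1, a partner of TLR2, gave 4859.4 and 3258.7 under LPS alone and 1591.4 and 2589.4 once immune complexes were added. Tlr6, the alternative partner, read 1613.9 and 1499.4 against 724.9 and 901.9. Both lay lower in all 4 pairs, unlike Tlr2 itself, with log2 fold changes of -0.96 ± 0.37 and -0.92 ± 0.37 that were -0.61 and -0.77 without the array that stood apart. The difference between Tlr2 and its partners was not tested.

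Cd180 and Ly86 encode a receptor and a partner built like TLR4 and MD-2. Cd180 gave 649.3 and 904.4 under LPS alone and 477.5 and 1209 once immune complexes were added, and Ly86 read 19153.6 and 23323.9 against 15988.2 and 18645.2. Ly86 was thus lower in all 4 pairs, at -0.29 ± 0.24, and it belongs to the bright class whose median was -0.20. Lbp, the serum protein that passes LPS to CD14, was too dim to test, with readings from 10.3 to 98.4.

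The other Toll-like receptors and their chaperones had a median of 0.14 over 11 tested genes, 7 of them above 0. Tlr3, a receptor of double-stranded RNA that uses TRIF alone, gave 597.5 and 607.1 under LPS alone and 748.3 and 793 once immune complexes were added, and it was the 1 gene of this list that was higher in all 4 pairs. Its log2 fold change was 0.34 ± 0.39. Tlr9, a receptor of bacterial DNA, had 0.71 ± 0.66, with replicates of both groups far apart. Unc93b1, which carries these receptors to endosomes, had 0.19 ± 0.28.

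Downstream of the adaptors the 11 tested genes of the MyD88 arm had a median of -0.13 and the 8 of the TRIF arm one of -0.10. Tirap, which links MyD88 to TLR4 at the membrane, gave 1061.4 and 581.8 under LPS alone and 483.5 and 518.4 once immune complexes were added. It was lower in all 4 pairs, at -0.62 ± 0.43. Traf6, the ubiquitin ligase that follows the IRAK kinases, had 0.07 ± 0.40, and Peli1, a ubiquitin ligase that acts on IRAK1, -0.22 ± 0.27.

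In the TRIF arm Ikbke, a kinase of IRF3, gave 5747.3 and 8213.4 under LPS alone and 2926.7 and 4727.9 once immune complexes were added. Its log2 fold change was -0.88 ± 0.34, and -0.54 without the array that stood apart. The related kinase Tbk1 had 0.01 ± 0.28, with interleaved readings. Irf3, the transcription factor both kinases act on, had -0.39 ± 0.40 and was lower in all 4 pairs.

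Among 15 tested inhibitors of Toll-like receptor signalling the median was -0.09, with 3 higher and 2 lower in all 4 pairs. Tollip, which binds IRAK1 and holds it inactive, gave 1452.8 and 2422.1 under LPS alone and 3601.9 and 3966.3 once immune complexes were added. The groups did not overlap, and the log2 fold change of 0.998 ± 0.36 was the highest of the genes in this list and was 1.07 without the array that stood apart. It did not pass, with limma's adjusted p = 1. Sigirr, an inhibitory receptor of the family, had -0.69 ± 0.55, and -0.07 without that array. Sarm1, an adaptor that restrains TRIF, was too dim to test, with readings from 4.2 to 117.8.

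Transcripts induced through each arm were read on 2 lists of target genes. The 12 tested targets assigned to MyD88 had a median of -0.02, with 4 lower and 2 higher in all 4 pairs. All 12 belong to the class with a mean signal over 10000, whose median was -0.20. In that class 35.5% were lower and 4.27% higher in all 4 pairs. The interleukins Il1a and Il1b had -0.77 ± 0.32 and -0.64 ± 0.21, and the chemokine gene Cxcl1 had 0.30 ± 0.30. The 11 tested targets assigned to TRIF and IRF3 had a median of -0.31, with 4 lower and 1 higher in all 4 pairs. Most of these 11 belong to the same bright class. Their median was -0.18 without the first LPS plus immune complexes array and -0.10 with quantile normalization. Ifnb1, the gene of interferon beta, was the 1 gene of this list higher in all 4 pairs, at 1.65 ± 0.57. The antiviral genes Mx1 and Usp18 had -0.70 ± 0.32 and -0.62 ± 0.39. The groups overlapped for Usp18, which gave 12410.8 and 5031.8 under LPS alone and 4928 and 5377 once immune complexes were added. Without the first LPS plus immune complexes array Ifnb1 had 0.80, Mx1 -0.26 and Usp18 -0.55.

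**Figure D4:**
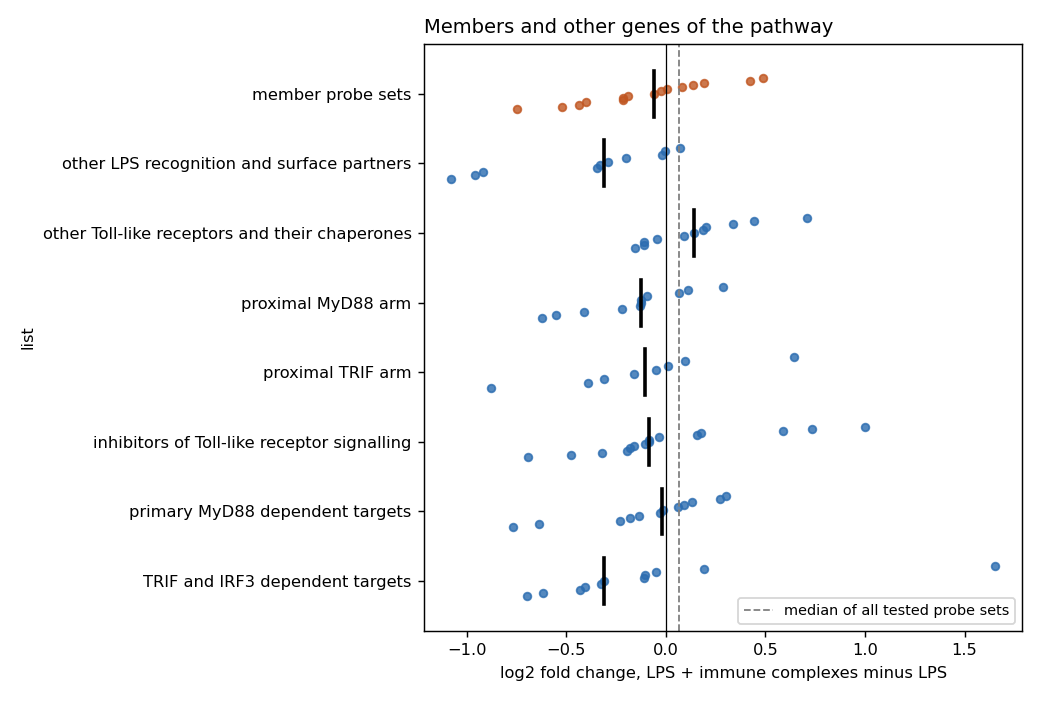
Log2 fold change, LPS plus immune complexes minus LPS, of the 15 tested member probe sets (orange) and of the tested genes of 7 pathway lists (blue, 1 point per gene); black bars are list medians and the dashed line is the median of all tested probe sets, 0.07. List medians lie between -0.31 and 0.14, and the point farthest to the right is Ifnb1 at 1.65.

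Markers of other blood cells were compared because granulocytes also carry CD14, TLR2 and MyD88. The summed signal of 8 neutrophil and granulocyte precursor genes came to 994.3 and 1075.8 under LPS alone and to 1677.6 and 1597.2 with immune complexes, with 4 of the 8 bright enough to test and none past limma's threshold. The brightest of these probe sets, that of S100a8, held a large part of each sum, at 540.8 and 504.7 against 871.3 and 1137.6. Elane, which was too dim to test, was higher in all 4 pairs too, at 16.3 and 19.9 against 127.7 and 85.2. Ngp gave 157.5 and 135.1 against 307.5 and 133.5. The readings of S100a9, Camp, Ltf, Mpo and Cxcr2 overlapped or were lower with immune complexes, and none exceeded 124.8. The 7 macrophage markers summed to 114192 and 140176 with LPS and to 102586 and 117054 with immune complexes. The part of these differences in the members' values was not tested. In RNA from whole cultures, fewer cells of a type and less RNA per cell cannot be told apart.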

How the data were processed

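RNA of the 4 samples was hybridised to an Affymetrix mouse array. The deposited table gives intensities on a linear scale, which the authors computed in MAS 5.0 (submitters' processing notes) for each probe set. MAS 5.0 scales each array as a whole, so differences in the shape of the distributions remain. No detection calls were used. At most 74 values were identical between any pair of arrays. The columns hold no other samples.

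Groups came from the titles. Values were transformed to log2(signal + 32). The 64 controls were left out, as were probe sets whose mean signal fell under the 40th percentile (69.6), and 27022 were tested. The groups were compared in limma 3.58.1 (R 4.3.3) with a variance trend, no block, two-sided, and Benjamini-Hochberg adjustment over all tested probe sets. Errors of fold changes are limma's standard errors. The method was run on simulated data with independent noise. These held no array that stood apart and no shared deviation of same-numbered arrays, so that run does not cover these features. Gene names came from GEO's platform annotation, which is old and names no genome build. Pathway genes were named by a fixed rule: chosen roles whatever their values, and any gene past the threshold or 2-fold in all 4 pairs. Of each target list up to 3 were named, those with the largest absolute log2 fold change. The members and lists were chosen with earlier results of these data known. Motif shares count all RefSeq promoters of the table.

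Alternatives were quantile normalization, median centring, a pseudocount of 1 or 100, no filter or the 60th percentile, no variance trend, the replicate number as a block, each array left out, and no probe sets ending in _x_at or _s_at. A filter at a mean signal of 500, quantile normalization with the block, and the classes by mean signal were chosen after seeing the data.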

Additional observations from a re-analysis of the deposited data

How the results depend on the processing

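With 2 arrays a group, only large changes could pass, and no member probe set passed under any alternative run except those with the replicate number as a block. The labels give no sign that replicate numbers pair the samples, and across tested probe sets the deviations of same-numbered arrays had Pearson's r of 0.38 (probe sets are not independent replicates). With the replicate block, limma called 1 member, Myd88, as lower (adjusted p 0.00337), and 9 pathway genes, and 671 probe sets against 14. The 9 were Tlr1, Tlr6, Ikbke, Il1a, Il1b, Mx1 and Usp18, lower, and Tollip and Ifnb1, higher. In the runs with the block limma took each variance from the trend over all probe sets, not from the probe set's own spread. Those p-values thus do not reflect how far the same-numbered differences lay apart, which for Myd88 were -1.05 and -0.45. Usp18 was called lower although its replicate 2 arrays read 5031.8 with LPS and 5377 with immune complexes. Quantile normalization with the replicate block called 1 member and 15 pathway genes. Among pathway genes 0 to 1 passed when an array was left out. Median centring took the median of all tested probe sets from 0.07 to -0.13. Without overlap, 8 to 11 members were counted when an array was left out, over 2 pairs rather than 4. Over all 4 pairs, quantile normalization gave 4 lower and 1 higher without overlap, and median centring 5 lower and 0 higher. The shares over all tested probe sets are not given here for these runs.

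Tlr4, Cd14, Tlr2, Myd88, Ly96 and Irak2 kept the sign of their brightest probe set under all alternatives run. The filters, the variance trend, the block and the choice of probe set types leave a fold change as it is. For Cd14, Myd88, Irak2 and Tlr4 1418162_at, lower in all 4 pairs, pseudocounts and left-out arrays could not turn the sign either. Quantile normalization and median centring could, and these gave -0.63 to -0.14 and -0.94 to -0.60. Signs turned for small values. With quantile normalization Tlr4 1442827_at had -0.23 and Irak1 1438120_x_at 0.0015, and the block left these values as they were. With median centring Tlr4 1442827_at had -0.19, Irak1 1438857_x_at -0.11, Irak1 1460649_at -0.0064 and Irak1 1448668_a_at -0.058. When an array was left out, the range was -0.60 to 0.22 for Tlr4 1418163_at and -0.37 to 0.38 for Tlr4 1442827_at. It was -0.32 to 1.17 for Ticam1. For Irak1 it was -0.30 to 0.25 (1438120_x_at), -0.059 to 0.22 (1438857_x_at), -0.085 to 0.47 (1460649_at) and -0.21 to 0.48 (1448668_a_at). For Irak3 it was -0.52 to 0.093 (1435040_at) and -0.73 to 0.61 (1430704_at). The cause was not tested.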
